A study of Mus musculus with 15 samples.

Results

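Promoters of healthy mouse islets were sorted by 2 histone marks on lysine 27 of histone H3, the active mark H3K27Ac and the repressive mark H3K27Me3. A promoter was the 5′ end of a protein-coding gene of the GENCODE mouse annotation with 1000 bp either side, and a mark was taken as present where a peak of that mark covered at least 1 bp of this window. The rule gave 20807 promoters on chromosomes 1 to 19, of 21951 protein-coding genes in the whole annotation. H3K27Ac alone was present at 9227 promoters (44.3%), H3K27Me3 alone at 1070 (5.14%), both marks at 380 (1.83%) and neither at 10130 (48.7%). The islets came from CBA males that were 10 weeks old when the diets began and that ate standard chow, the regular diet (RD). They were freed from the pancreas with collagenase, picked by hand and pooled, with about 600 islets per chromatin immunoprecipitation. Each mark had 2 RD samples, 4 of the 15 samples in the series, and the authors merged the pair before they called peaks. The other groups, used here only at the end, were CBA mice on a high-fat diet (HFD) and on HFD containing O304, an activator of AMPK (HFD-O304).

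Acetylation of lysine 27 is laid down by the acetyltransferases p300 and CBP and marks promoters and enhancers in use. Trimethylation of the same residue is laid down by Polycomb repressive complex 2, whose catalytic subunit is EZH2 or EZH1, and marks silent genes, above all developmental regulators of other lineages. A single histone tail cannot carry both modifications on that lysine at once. Where peaks of both marks meet at a promoter, they can lie on different nucleosomes, on different alleles or in different cells. An islet holds insulin-producing beta cells, glucagon-producing alpha cells and somatostatin-producing delta cells beside vessels and immune cells, and in such bulk samples fewer cells with a mark and less mark per cell cannot be told apart.

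To show the kind of sequence behind each class, the 300 bases that precede the annotated start of 1 promoter per class are printed from the GRCm38 reference, 5′ to 3′ on the strand of the gene, with every CpG dinucleotide in capitals. Irs2, which encodes an adaptor of the insulin receptor, carried one of the widest peaks with H3K27Ac alone. Lhx2, a LIM-homeodomain factor of the forebrain and eye, was among the strongest peaks with H3K27Me3 alone. Cbx8, which encodes a Polycomb subunit that binds H3K27Me3, carried both marks, and Gcg, the glucagon gene, carried neither. The stretches lie at chr8:11008459-11008758 on the minus strand for Irs2, chr2:38338981-38339280 on the plus strand for Lhx2, chr11:119040970-119041269 on the minus strand for Cbx8 and chr2:62483651-62483950 on the minus strand for Gcg.
Irs2: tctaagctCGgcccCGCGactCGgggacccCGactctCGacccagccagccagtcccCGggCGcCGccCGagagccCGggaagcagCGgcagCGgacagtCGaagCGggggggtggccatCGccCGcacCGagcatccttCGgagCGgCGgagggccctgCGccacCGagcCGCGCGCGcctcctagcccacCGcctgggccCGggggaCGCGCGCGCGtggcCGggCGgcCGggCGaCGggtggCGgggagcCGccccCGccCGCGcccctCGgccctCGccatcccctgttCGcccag
Lhx2: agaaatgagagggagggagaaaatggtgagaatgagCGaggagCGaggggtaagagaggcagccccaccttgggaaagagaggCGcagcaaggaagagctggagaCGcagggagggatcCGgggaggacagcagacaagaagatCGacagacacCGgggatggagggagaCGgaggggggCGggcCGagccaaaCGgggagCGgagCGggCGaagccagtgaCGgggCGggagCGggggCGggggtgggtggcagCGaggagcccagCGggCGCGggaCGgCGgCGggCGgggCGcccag
Cbx8: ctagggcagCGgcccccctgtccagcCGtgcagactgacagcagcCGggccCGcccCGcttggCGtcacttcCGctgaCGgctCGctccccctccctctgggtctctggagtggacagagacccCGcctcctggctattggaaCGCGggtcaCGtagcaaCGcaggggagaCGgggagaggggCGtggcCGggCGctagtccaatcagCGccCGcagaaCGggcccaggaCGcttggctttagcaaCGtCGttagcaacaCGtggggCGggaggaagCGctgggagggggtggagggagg
Gcg: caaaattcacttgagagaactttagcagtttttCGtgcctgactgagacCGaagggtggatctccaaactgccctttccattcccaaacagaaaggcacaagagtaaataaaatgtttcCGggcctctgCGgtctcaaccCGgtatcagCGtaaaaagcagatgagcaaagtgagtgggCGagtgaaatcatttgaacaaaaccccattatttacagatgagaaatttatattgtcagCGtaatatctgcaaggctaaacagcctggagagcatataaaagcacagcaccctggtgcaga
The Irs2 stretch holds 47 CpGs, Lhx2 27, Cbx8 27 and Gcg 8. Their GC contents are 80.3%, 69.7%, 69.7% and 44.0%. The same contrast between the class without marks and the other classes held over all promoters, where the median count of CpGs in these 300 bases was 18 with H3K27Ac alone, 14 with H3K27Me3 alone, 14 with both marks and 3 with neither.

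The H3K27Ac list rested on 83773042 fragments kept after removal of duplicates and held 15847 peaks on chromosomes 1 to 19, which covered 17.4 Mb. The H3K27Me3 list rested on 74870300 kept fragments and held 14286 peaks there, which covered 13.0 Mb. Duplicates made up 18.4% of the H3K27Ac and 45.7% of the H3K27Me3 fragments. The lowest fold enrichment in the lists, the ratio of mean coverage to a uniform background with 1 added to each, was 2.28 for H3K27Ac and 2.53 for H3K27Me3, so a promoter without a peak had coverage below those limits and was not shown to lack the mark. With 1 list per mark there is no spread between replicates, no difference between classes could be tested, and the intervals given are 95% Wilson intervals that cover counting error only and treat promoters as independent. The antibodies and depths differ, so coverage is compared within a mark.

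The label of the tissue was checked against marker genes of islets and of the other cells a picked islet can bring along. H3K27Ac was called at 14 of 16 promoters of beta cell transcription factors, beside 46.2% of all promoters. Among islet hormones and granule proteins it was called at 4 of 12 promoters. It was called at none of 12 macrophage and leukocyte markers, at none of 10 fibroblast and stellate markers, at 2 of 14 acinar markers, at 2 of 12 endothelial markers and at 3 of 9 ductal markers. The 2 acinar promoters were Bhlha15, with a peak of 1877 bp, and Cela3b, with 289 bp. The genes of the abundant digestive enzymes Cpa1, Ctrb1, Pnlip and Cel had no peak of either mark. The islet genes Gcg, Sst and Iapp had none either, so a missing peak did not tell these cell types apart. H3K27Me3 was called at 6.97% of all promoters and at 3 endothelial markers that had no H3K27Ac, the transcription factors Sox17 and Erg and the receptor gene Kdr.

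The first comparison asked how often the marks met. Of the 1450 promoters with H3K27Me3, 380 also carried H3K27Ac, a share of 26.2% (24.0 to 28.5%), whereas H3K27Ac was called at 47.7% (47.0 to 48.4%) of the promoters without H3K27Me3. Seen from the other side, H3K27Me3 was called at 3.96% (3.58 to 4.36%) of promoters with H3K27Ac and at 9.55% (9.02 to 10.1%) of those without. The separation was sharpest at CpG-rich promoters, defined by a GC content of at least 50% and an observed over expected CpG ratio of at least 0.6 in the window. Of 6405 such promoters, 81.2% had H3K27Ac alone, 7.45% H3K27Me3 alone, 2.79% both and 8.54% neither. Among the 1024 CpG-rich promoters without H3K27Ac, 477 carried H3K27Me3, or 46.6% (43.5 to 49.6%), against 3.33% (2.88 to 3.84%) of the 5381 with H3K27Ac. At promoters that were not CpG-rich the corresponding shares were 5.83% (5.39 to 6.30%) and 4.76% (4.15 to 5.44%). Most H3K27Me3 calls lay close to the limit of the list. When both lists were limited to a −log10 q of at least 5, 157 promoters had H3K27Me3 alone and 75 had both marks. Of the promoters with an H3K27Me3 peak past that limit, 124 had no H3K27Ac peak in the whole list.

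**Figure D1:**
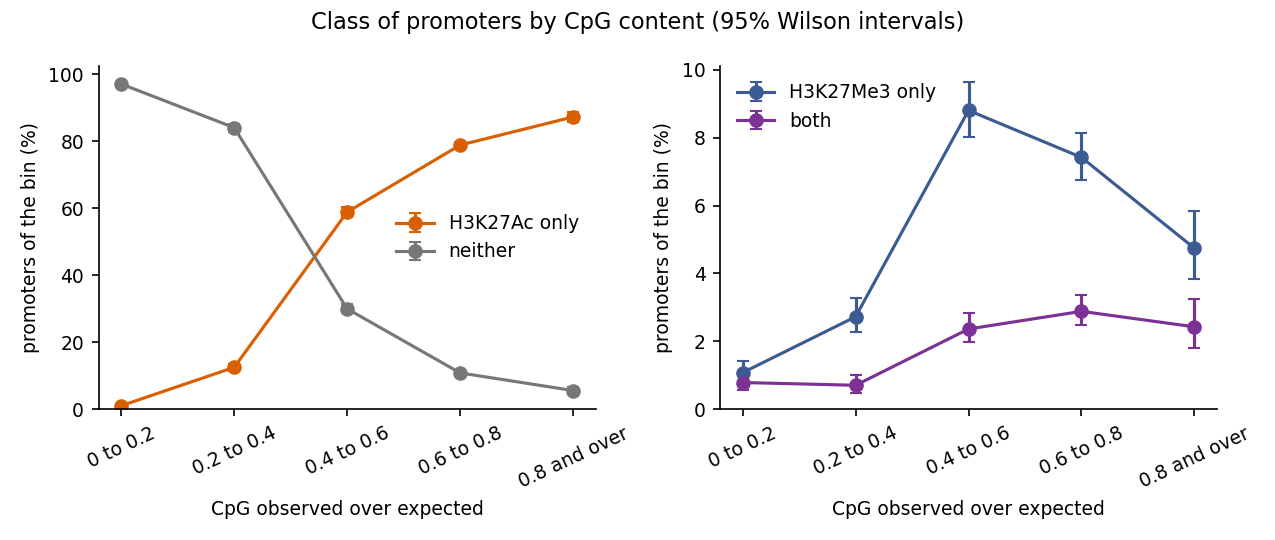
Percentage of promoters in each class (vertical axis) by the observed over expected CpG ratio of the 2001 bp window (horizontal axis), with 95% Wilson intervals; the left panel shows H3K27Ac only and neither, the right panel H3K27Me3 only and both, on its own scale. H3K27Ac alone climbs from 1.06% of promoters in the lowest bin to 87.2% in the highest, and H3K27Me3 alone is highest, at 8.80%, in the bin from 0.4 to 0.6.

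CpG content ordered the classes in steps. Below a ratio of 0.2, 97.1% of the 4823 promoters had neither mark and 1.06% had H3K27Ac alone. From 0.4 to 0.6, 58.9% had H3K27Ac alone, 8.80% H3K27Me3 alone and 30.0% neither. At 0.8 and over, 87.2% of the 1771 promoters had H3K27Ac alone, and the share with H3K27Me3 alone was down to 4.74% (3.85 to 5.84%). The median ratio was 0.65 at promoters with H3K27Ac alone, 0.59 with H3K27Me3 alone, 0.61 with both and 0.21 with neither. H3K27Me3-only promoters thus had a GC content as high as H3K27Ac-only promoters, with medians of 56.4% and 54.7%, but somewhat fewer CpGs for it.

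Other features of the promoters, which the sorting did not use, also differed between the classes. A second protein-coding gene starting on the opposite strand within 1000 bp was found at 21.6% (20.8 to 22.5%) of promoters with H3K27Ac alone, at 3.36% (2.44 to 4.62%) with H3K27Me3 alone, at 9.21% (6.70 to 12.5%) with both and at 2.52% (2.23 to 2.84%) with neither. The 300 bases before the start were searched on both strands for the short sequences of 3 core promoter motifs, none of which contains another. A match counted wherever it lay, so it need not be a working motif. TATAAA, the sequence of the TATA box, was found in 20.7% of promoters with neither mark and in 9.81% with H3K27Me3 alone. Its share was 8.16% with both and 6.85% with H3K27Ac alone, beside 13.8% of all promoters. The GC box GGGCGG, a motif of Sp1-family factors, was found in 62.4% with H3K27Ac alone, 54.5% with H3K27Me3 alone, 50.8% with both and 19.7% with neither, beside 41.0% of all. The CCAAT box, searched as CCAAT, lay between 36.8% and 40.3% in all 4 classes. GGGCGG itself holds a CpG. The median GC content of the window was 46.5% with neither mark, 54.7% with H3K27Ac alone, 56.4% with H3K27Me3 alone and 56.0% with both. The motif shares were not set apart from this base composition.

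Within each list the peaks at promoters with 1 mark had a larger median width than the peaks away from promoters. The 8059 H3K27Ac peaks at H3K27Ac-only promoters had a median width of 939 bp, with quartiles of 596 and 1383 bp, and a median coverage of 38.3 fragments per base. The 7456 H3K27Ac peaks away from promoters had a median of 599 bp and 33.1 fragments per base. The 1058 H3K27Me3 peaks at H3K27Me3-only promoters had a median width of 768.5 bp, with quartiles of 405 and 1273 bp, and a median coverage of 26.7 fragments per base, hardly above the lowest value in that list, 24. The 12892 H3K27Me3 peaks away from promoters were narrower, with a median of 542 bp, but had a median coverage of 27.9 fragments per base, and the median share of repeat-masked bases in them was 100%. H3K27Me3 peaks at H3K27Me3-only promoters had a median of 6.16% repeat-masked bases.

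At promoters with both marks the H3K27Ac peaks had a median width of 805 bp and a median coverage of 33.7 fragments per base, below the median at H3K27Ac-only promoters, while the H3K27Me3 peaks had a median width of 785 bp and a median coverage of 26.8, next to that at H3K27Me3-only promoters. A −log10 q of at least 5 was reached by the H3K27Ac peak at 67.4% of H3K27Ac-only promoters and at 44.5% of promoters with both marks. For H3K27Me3 the order was the other way round, with 11.4% of H3K27Me3-only promoters and 28.4% of promoters with both marks. The medians turned round at a −log10 q of at least 5 in both lists, which left 75 promoters with both marks. Their H3K27Ac peaks had 3229 bp and 45.0 fragments per base against 1044 bp and 41.3 at H3K27Ac-only promoters. In the whole class 36 promoters had folds of at least 4 for both marks, and 30 of these had symbols of predicted genes (Gm or Rik). The upper tail of the class with both marks was long. Its 95th percentile of width was 7791 bp for H3K27Ac and 8080 bp for H3K27Me3, against 2335 bp and 2739 bp at promoters with 1 mark.

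**Figure D2:**
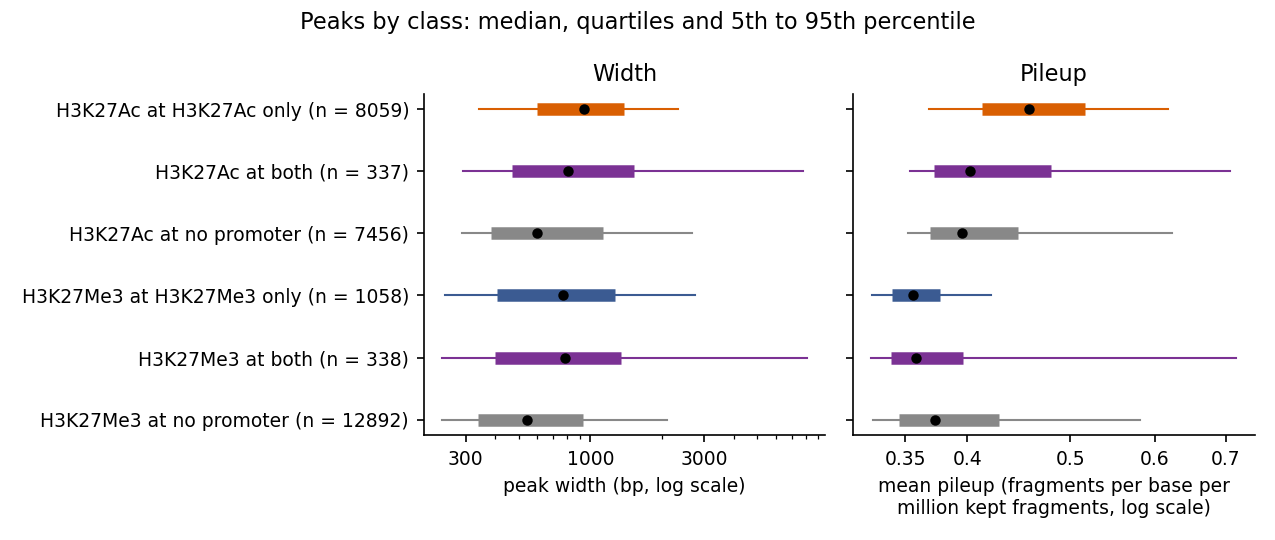
Peak width in bp (left, log scale) and mean coverage in fragments per base, scaled to the number of kept fragments as the axis states (right, log scale) for distinct peaks of each mark by the class of promoter they touch or at no promoter; points are medians, thick bars quartiles and thin lines the 5th to 95th percentile. H3K27Ac peaks at H3K27Ac-only promoters have a median of 0.457 on the right axis against 0.402 at promoters with both marks, and both marks show their longest upper tails at promoters with both marks.

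Both marks sat just inside the gene. At H3K27Ac-only promoters the median peak centre was 233 bp downstream of the start, and the share of promoters under a peak was highest 250 bp downstream, at 88.7%. At H3K27Me3-only promoters the median centre was 302 bp downstream, and the share under a peak was highest 300 bp downstream, at 64.2%. The H3K27Me3 shoulders reached farther. At 3000 bp downstream 6.92% of H3K27Me3-only promoters were still under an H3K27Me3 peak, against 1.48% of H3K27Ac-only promoters under an H3K27Ac peak. The start site itself lay under the peak at 67.1% (66.1 to 68.0%) of H3K27Ac-only and 51.7% (48.7 to 54.7%) of H3K27Me3-only promoters.

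Where both marks were called they mostly shared the same bases. Peaks of the pair overlapped within the window at 364 of 380 promoters, with a median of 418.5 bp of the window under both. The H3K27Me3 centre was the more downstream one by a median of 57.8 bp, with quartiles from 329.5 bp downstream to 115.8 bp upstream of the H3K27Ac centre. The whole window of 2001 bp lay under both marks at 35 promoters. Distances from promoters with a single mark to the other mark were of the same order as those from promoters with neither. The nearest H3K27Me3 peak was a median of 91257 bp away from H3K27Ac-only starts, and the nearest H3K27Ac peak a median of 66363 bp from H3K27Me3-only starts. From starts with neither mark the medians were 73101 bp to H3K27Me3 and 52622 bp to H3K27Ac.

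**Figure D3:**
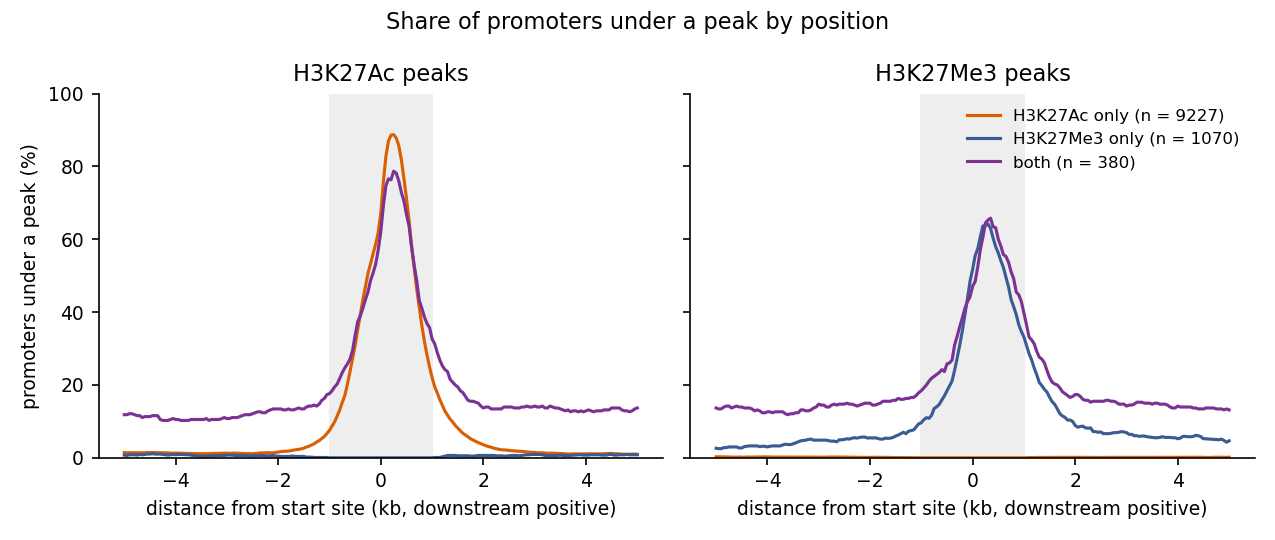
Percentage of promoters lying under a peak of H3K27Ac (left) and H3K27Me3 (right) at each distance from the start site in kb, downstream positive, for the 3 classes with a mark; the grey band is the window used for sorting, inside which the other mark is absent by the rule. Both marks are highest 250 to 350 bp downstream, and at promoters with both marks 10.8% to 14.7% remain under a peak 3 kb away on either side.

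Families of housekeeping genes lay mostly in the class with H3K27Ac alone. It held 70 of 79 cytosolic ribosomal protein genes, 63 of 78 mitochondrial ribosomal protein genes, 33 of 39 proteasome subunits, 30 of 35 subunits of respiratory complex I and 47 of 52 genes of translation initiation factors. Among gene name stems with at least 15 promoters the highest shares were those of Taf, subunits of the general factor TFIID, with 19 of 20, Pex, the peroxisome biogenesis genes, with 16 of 17, and Vps, vesicle sorting genes, with 32 of 35. All 20 promoters of a list of endoplasmic reticulum stress genes and all 15 of a list of circadian clock genes fell in this class, beside 44.3% of all promoters. Of the promoters 14 of the 20 and 10 of the 15 were CpG-rich, and 81.2% of all CpG-rich promoters had H3K27Ac alone. Both lists kept every promoter in the class in HFD and HFD-O304, beside 97.5% and 97.6% of all H3K27Ac-only promoters. Xbp1, the transcription factor spliced in the unfolded protein response, had a fold of 4.77 over 1723 bp, and Herpud1, a component of the degradation machinery of the reticulum, 4.10 over 2338 bp. Per1, a repressor arm of the clock, had 3.47 over 7132 bp, and Nr1d2, a nuclear receptor of the clock, 4.83 over 1834 bp. Of 18 immediate early genes 15 had H3K27Ac alone, among them Fos with 3702 bp and Junb with 4714 bp. Egr3 had H3K27Me3 alone over 2571 bp, and its nearest H3K27Ac peak was 1470 bp from the start.

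Width and height picked out different genes within the class. The widest peak at an H3K27Ac-only promoter was that of Pax6, a homeodomain factor required for islet endocrine cells, with 12487 bp at chr2:105666559-105679045 and a fold of only 2.82. Celf3 and Riiad1 shared the next peak of 9382 bp. Irs2 with 7189 bp and Per1 with 7132 bp were also among the 10 widest. The highest −log10 q belonged to other genes, with widths from 705 bp at Pink1 to 2972 bp at Vps37a among the top 10. Clk1, a kinase that regulates splicing, had 35.3 over 1038 bp with a fold of 5.95, and Slc25a3, the mitochondrial phosphate carrier, had 30.6 over 839 bp. Pink1, a kinase of mitochondrial quality control, reached 27.8 over 705 bp. The shared promoter of Arcn1 and Ift46 reached 29.2.

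Transcription factors of beta cells were nearly all in the class with H3K27Ac alone, and 10 of their 16 promoters were CpG-rich. Their median H3K27Ac width was 2415 bp over the 14 promoters with a peak, against 971 bp over all promoters with H3K27Ac. Nkx6-1 had 4392 bp with a fold of 3.80, Foxa2 3566 bp, Pdx1 2983 bp with a fold of 2.77 and Insm1 2911 bp with a fold of 3.62. Mafa, an activator of insulin transcription, had 1231 bp with a fold of 2.99. Mnx1 was close to the limit with a fold of 2.34. The 2 without a peak in the window were Neurod1, whose nearest H3K27Ac peak began 1504 bp from the start, and Myt1, which had H3K27Ac alone when any start of a coding transcript was allowed. Of 25 genes of glucose sensing and secretion 16 had H3K27Ac alone, or 64.0% beside 44.3% of all promoters. Among them were the subunits of the ATP-sensitive potassium channel, Abcc8 with 4433 bp and Kcnj11 with 3982 bp. The prohormone convertase gene Pcsk2 had 3295 bp, and Vamp2, a SNARE of secretory vesicles, had the highest fold of the list at 4.85. Slc2a2, the glucose transporter gene, had no peak in the window, and its nearest H3K27Ac peak lay 1387 bp away.

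Of 12 promoters of hormones and granule proteins 4 had H3K27Ac alone, or 33.3% beside 44.3% of all promoters, namely Ins1 with 341 bp and a fold of 2.70, Chga with 1812 bp and 3.04, Chgb with 912 bp and 3.71, and Ucn3 with 582 bp and 2.41. Gcg, Sst, Ppy, Pyy, Iapp, Ghrl and Scg2 had neither mark. The nearest H3K27Ac peak was 72001 bp from the Gcg start, 50128 bp from Sst, 9074 bp from Iapp and 3601 bp from Ppy. Ins2 had neither mark at the 5′ end of its gene record, but H3K27Ac alone when any start of a coding transcript was allowed. None of the 12 was CpG-rich and none had H3K27Me3.

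**Figure D4:**
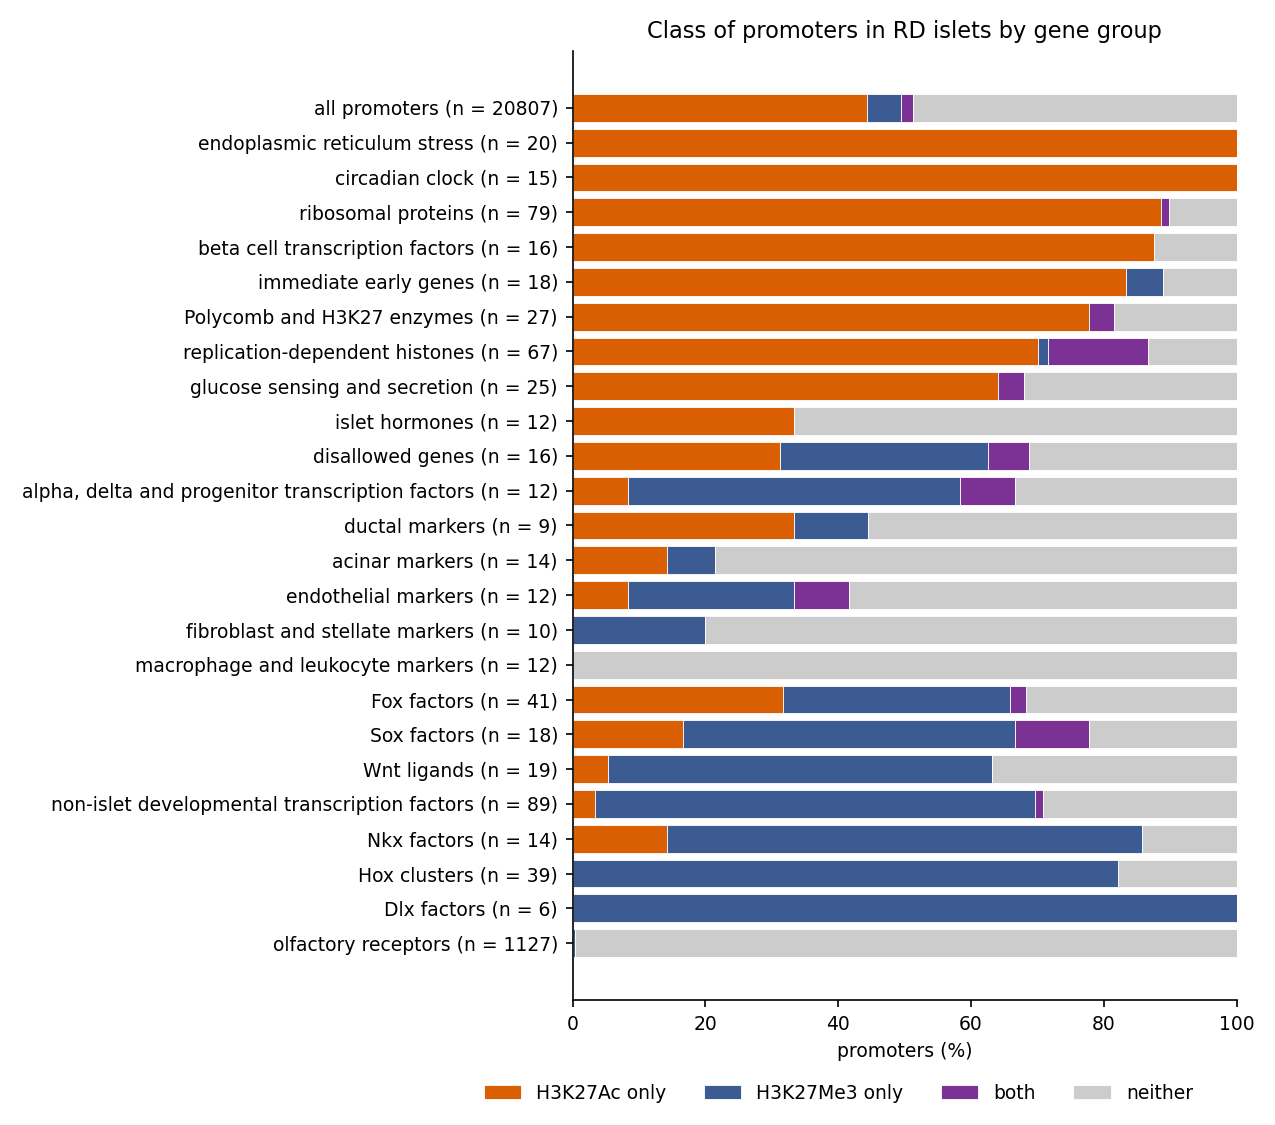
Percentage of promoters in each of the 4 classes (horizontal axis) for all promoters and for 24 gene lists and families, with the number of promoters in parentheses. The stress and clock lists are wholly H3K27Ac only, the Hox, Dlx and Nkx families are mostly H3K27Me3 only, and leukocyte markers and olfactory receptors are almost wholly neither.

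Many developmental regulators of other tissues lay in the class with H3K27Me3 alone. A list of developmental genes of other tissues had 89 promoters, and their expression in islets was not examined. Of these 59 had H3K27Me3 alone, 3 had H3K27Ac alone, 1 had both and 26 had neither. The share with H3K27Me3 alone was 66.3%, beside 5.14% of all promoters. The H3K27Me3 peaks of the list were wider than usual, with a median of 1364 bp over the 60 promoters with the mark. Over all promoters with H3K27Me3 the median was 787.5 bp, while the median folds were 2.86 in the list and 2.80 over all. The widest was Pax2, a factor of kidney and eye, with 7095 bp. Dlx2 had 4316 bp, En1 3949 bp, Pax5 3706 bp and Twist1 3361 bp. The strongest was Lhx2, whose peak of 1010 bp had a fold of 3.98. Among all promoters of the class the widest peaks were at the predicted genes Gm36079 with 12270 bp, Gm21663 with 9880 bp and Gm10553 with 8297 bp. Isl2 with 8055 bp and Tlx3 with 7627 bp, both homeodomain factors of neurons, followed. By −log10 q the class was led by Gm13271 with 25.5, Krtap5-3 with 15.5 and Reg2 with 10.8. The peaks of Krtap5-3 and Reg2 were 94.7% and 100% repeat-masked. Lhx2 had 10.3 and ranked 7 in the class. The 3 of the list with H3K27Ac alone were Lhx1, Cdkn2a and Cdkn2b. Cdkn2a and Cdkn2b encode cell cycle inhibitors and not transcription factors.

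The Hox genes, which pattern the body axis, carried H3K27Me3 at 32 of 39 promoters and H3K27Ac at none. Over all promoters the shares were 6.97% with H3K27Me3 and 46.2% with H3K27Ac. Of the 39 Hox promoters 19 were CpG-rich. The widths ran from 222 bp at Hoxb13 to 4122 bp at Hoxd9, and the folds from 2.56 at Hoxd12 to 3.48 at the peak shared by Hoxd3 and Hoxd4. The 7 with neither mark were Hoxa4, Hoxa10, Hoxb2, Hoxb3, Hoxb8, Hoxc4 and Hoxd11. Along the chromosomes the longest uninterrupted runs of H3K27Me3-only promoters were 8 promoters of the Hoxc cluster, from Hoxc13 to Hoxc6, 7 at the Hoxd cluster and 6 at the Hoxa cluster, the latter runs each with a Gm gene among the Hox genes. A run of 4 held Nkx2-1, Nkx2-9, Pax9 and Slc25a21 on chromosome 12, and another held Zic5 and Zic2 on chromosome 14. Runs of 2 or more took in 24.3% of H3K27Me3-only promoters and 83.5% of the far more numerous H3K27Ac-only promoters, whose longest runs had 19 genes.

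Other families of developmental genes also had many members with H3K27Me3 alone. Over all promoters 5.14% had H3K27Me3 alone and 44.3% had H3K27Ac alone. CpG-rich were 2 of 6 Dlx, 6 of 14 Nkx, 4 of 9 Pax and 4 of 12 T-box promoters. So were 5 of 6 Irx, 11 of 19 Wnt and 13 of 18 Sox promoters. Of all CpG-rich promoters 7.45% had H3K27Me3 alone. All 6 Dlx promoters had H3K27Me3 alone. Of 14 Nkx promoters 10 had H3K27Me3 alone, and the 2 with H3K27Ac alone were the beta cell factors Nkx2-2 and Nkx6-1. Of 9 Pax promoters 5 had H3K27Me3 alone, and the only one with H3K27Ac was Pax6. Of 12 T-box promoters 8 had H3K27Me3 alone and none had H3K27Ac. Of 6 Irx promoters 5 had H3K27Me3 alone, including Irx1 and Irx2, which are factors of alpha cells. Of 19 genes of Wnt ligands 11 had H3K27Me3 alone, with widths from 616 bp at Wnt11 to 1496 bp at Wnt10b, and only Wnt4 had H3K27Ac. Of 18 Sox promoters 9 had H3K27Me3 alone, 3 had H3K27Ac alone (Sox4, Sox12 and Sox13) and 2 had both (Sox5 and Sox30).

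Regulators of other endocrine lineages and of the progenitor stage were not alike. Of 12 such promoters 6 had H3K27Me3 alone, 1 had H3K27Ac alone, 1 had both and 4 had neither. The share of 50.0% with H3K27Me3 alone stood beside 5.14% of all promoters. Those with H3K27Me3 alone were Onecut1 with 2046 bp, Sox9 with 3327 bp, Irx1 with 1283 bp, Irx2 with 1092 bp, Gata6 with 625 bp and Hhex, the factor of delta cells, with 930 bp. Hes1, a target of Notch, had H3K27Ac alone over 1476 bp. Neurog3, Pax4, Ptf1a and Gata4 had neither mark at their 5′ ends.

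The disallowed genes, which are broadly expressed elsewhere but kept low in beta cells, were split across the classes. Of 16, 5 had H3K27Me3 alone, 5 had H3K27Ac alone, 1 had both and 5 had neither. The shares of 31.2% with H3K27Me3 alone and 31.2% with H3K27Ac alone stood beside 5.14% and 44.3% of all promoters. With H3K27Me3 alone were Ldha, the lactate dehydrogenase gene, with 539 bp at the lowest fold of the list, 2.53, Pdgfra, a growth factor receptor, with 955 bp and the highest fold, 3.21, Cxcl12 with 543 bp, Igfbp4 with 943 bp and Maf with 1621 bp. Slc16a1, the monocarboxylate transporter gene, had both, with an H3K27Ac peak of 1139 bp and an H3K27Me3 peak of 579 bp. Rest, the repressor of neuronal genes, Zyx, Oat, Smad3 and Lmo4 had H3K27Ac alone with folds from 2.38 to 3.06.

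Of 27 promoters of Polycomb subunits and of enzymes acting on lysine 27, the machinery that writes, reads and removes these marks, 21 had H3K27Ac alone. This share of 77.8% stood beside 44.3% of all promoters and 81.2% of CpG-rich promoters, and 22 of the 27 were CpG-rich. Ep300 and Crebbp, the genes of p300 and CBP, had folds of 4.88 and 3.97, and Ezh2, Eed and Suz12, the core of Polycomb repressive complex 2, had 3.20, 3.26 and 2.79. Cbx8, a reader of H3K27Me3, was the only one with H3K27Me3, and it carried both marks, with H3K27Ac over 1512 bp at a fold of 3.07 and H3K27Me3 over 1543 bp at 3.05. Bmi1, Kdm6b, Cbx2, Cbx7 and Aebp2 had no peak in the window.

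The class with both marks was mixed. Its strongest members were predicted or multicopy genes. Both folds were at least 4 at 36 promoters, which lay on 17 H3K27Ac peaks, and 30 of the 36 had symbols of the predicted Gm or Rik kind, against 20.5% of the whole class and 8.48% of all promoters. Gm10800 on chromosome 2 had folds of 1431 for H3K27Ac and 3947 for H3K27Me3. A stretch on chromosome 9 of 38403 bp with H3K27Ac and 38404 bp with H3K27Me3 took in 9 neighbouring Gm promoters with folds of 414 and 616. Gm21738 on chromosome 14 had 633 and 852. Sfi1 on chromosome 11 had 9.27 and 11.0 over peaks of 74420 and 74258 bp. A run of 13 promoters with both marks on chromosome 4 held Ifnz, with folds of 4.31 and 8.30, and a wide stretch held Gm15319 on chromosome 8, with 123627 bp of H3K27Ac and 74966 bp of H3K27Me3. Reads of such near-identical copies cannot be assigned to 1 of them, so these calls are uncertain. Duxf3 and the Sprr2a genes are of the same kind. The part of copy number or read mapping in these calls was not tested.

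A further group of members with both marks lay under wide stretches that passed over neighbouring genes. Hjurp and Trpm8 on chromosome 1 shared an H3K27Ac peak of 20700 bp and an H3K27Me3 peak of 19751 bp, and Ugt1a1 and Mroh2a followed beside them. Hdhd3 and Alad, an enzyme of haem synthesis, shared peaks of 28025 and 27025 bp. Cd244a had 31669 bp of H3K27Ac and 11906 bp of H3K27Me3. Glp1r, the receptor of the incretin GLP-1 and the only gene of the secretion list with both marks, lay in an H3K27Ac peak of 22966 bp with a fold of 2.89, and its H3K27Me3 peak of 2035 bp had a fold of 3.39. Its neighbours Btbd9, Dnah8 and Glo1 were in the same class. Both peaks were at least 5000 bp wide at 38 promoters. Peaks were called with no input control. The part of copy number or read mapping in these wide calls, that at Glp1r among them, was not tested either.

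Away from these loci the members with both marks had peaks near the limits of the lists. CpG-rich promoters made up 179 of the 380, or 47.1% (42.1 to 52.1%). The CpG-rich members included Six4, a homeodomain factor, Klf2, a flow-responsive factor, Cebpa, Nrarp, an inhibitor of Notch signalling, Smo, the Hedgehog transducer, Epop, a partner of Polycomb, and Flt1, an endothelial receptor. Klf2 had folds of 3.01 for H3K27Ac over 1653 bp and 2.89 for H3K27Me3 over 1083 bp, with 856 bp under both. Six4 had 2.90 over 1585 bp and 2.53 over 817 bp. At Cebpa, with 2.46 over 1544 bp and 2.71 over 400 bp, the peaks did not overlap in the window. Smarca5, a remodelling ATPase, and Naf1, a factor of box H/ACA ribonucleoproteins, were stronger. Smarca5 had 3.86 over 2038 bp of H3K27Ac with 3.76 over 439 bp of H3K27Me3, and Naf1 had 4.81 and 4.11. The inducible heat shock genes Hspa1a and Hspa1b, near-identical neighbours, both carried the pair of marks with folds of 3.17 for H3K27Ac and 3.33 and 3.47 for H3K27Me3.

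Among gene name stems with at least 15 promoters the semaphorins (Sema), which guide axons and vessels, had the largest share of members with both marks, 5 of 20, beside 1.83% of all promoters. These were Sema5a, Sema5b, Sema6a, Sema6d and Sema7a. Sema5b had a wide H3K27Me3 peak of 11365 bp with a fold of 3.43 against 1968 bp and 2.59 for H3K27Ac. Of 67 replication-dependent histone genes 47 had H3K27Ac alone and 10 had both. The H3K27Me3 peaks at the histone genes were narrow, with a median of 353 bp and folds from 2.57 to 3.07, and how reads were divided among the similar copies was not tested. Rpl13 was the only ribosomal protein gene with both marks, with 1402 bp of H3K27Ac and 247 bp of H3K27Me3.

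**Figure D5:**
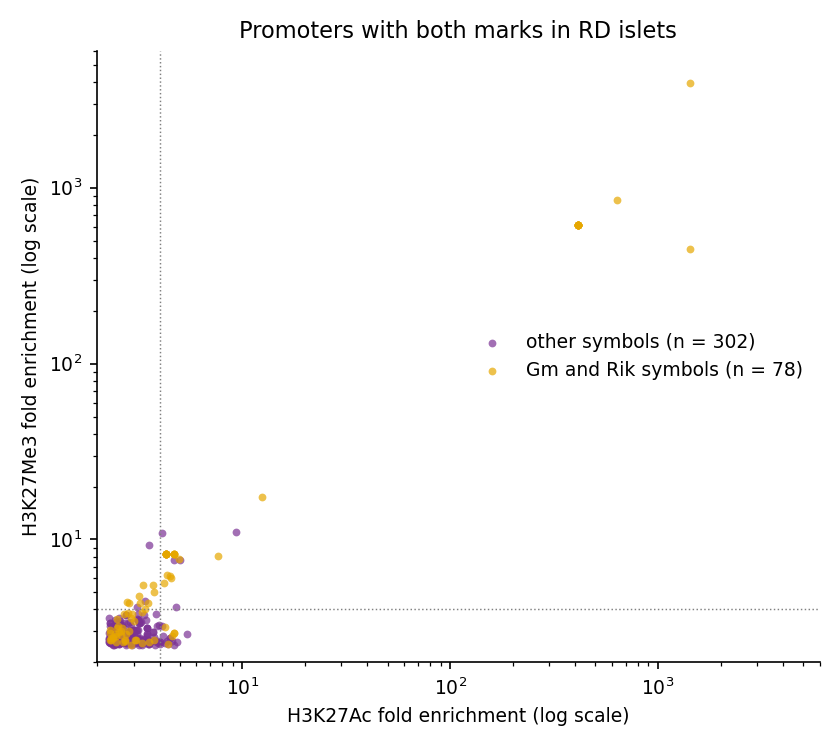
Fold enrichment of the H3K27Ac peak (horizontal axis, log scale) and of the H3K27Me3 peak (vertical axis, log scale) at each of the 380 promoters with both marks, with Gm and Rik symbols in yellow and all others in purple; dotted lines stand at 4. Most promoters crowd in the lower left corner near the limits of the lists, and the few above 100 in both marks have Gm symbols.

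Sensory and tissue-restricted families mostly had neither mark, beside 48.7% of all promoters and 66.5% of those that were not CpG-rich. Of 1127 olfactory receptor genes 1123 had neither and 4 had H3K27Me3 alone, the strongest at Olfr172 with 394 bp and a fold of 3.98. Of 326 vomeronasal receptors 325 had neither. All 34 Scgb (secretoglobin), 22 Mup (major urinary protein) and 22 Pcdhb promoters had neither, as did 53 of 56 clustered protocadherins, 49 of 53 keratins, 41 of 42 beta-defensins, 36 of 37 interleukins and 86 of 100 cytochromes P450. These families were poor in CpG, with no CpG-rich promoter among the olfactory and vomeronasal receptors, keratins or beta-defensins. Among all promoters with a CpG ratio below 0.2, 97.1% had neither mark, so the family counts were not set apart from their CpG content. Only 547 of the 6405 CpG-rich promoters had neither mark.

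The classes were then compared with the calls in islets of the other diets, which the sorting did not use. Of the H3K27Ac-only promoters of RD islets 97.5% (97.2 to 97.8%) had the same class in HFD and 97.6% (97.2 to 97.9%) in HFD-O304. Of the H3K27Me3-only promoters 69.1% (66.2 to 71.8%) and 73.1% (70.3 to 75.7%) did, and a further 19.7% and 17.1% had H3K27Ac beside H3K27Me3 there. Of the promoters with both marks 62.4% (57.4 to 67.1%) and 54.7% (49.7 to 59.7%) kept both, while 29.7% and 33.7% had H3K27Ac alone. Of the 36 with folds of at least 4 in both lists 35 had both marks in all 3 diets, against 43.6% (38.5 to 48.9%) of the other 344. Among promoters with neither mark, H3K27Ac alone was the more frequent single-mark call under HFD, at 10.6% against 4.49% for H3K27Me3 alone. With O304 added these shares were 10.4% against 5.79%. Switches from one mark to the other were rare. From H3K27Ac alone to H3K27Me3 alone they numbered 10 of 9227 in HFD and 12 in HFD-O304, and in the opposite direction 24 and 26 of 1070. The classes also differed in how close their peaks lay to the limit. A −log10 q of at least 5 was reached in RD at 67.4% of H3K27Ac-only and 11.4% of H3K27Me3-only promoters. Depth and peak number differed between the diets' lists. The part of all these differences in the shares was not tested.

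Single genes and families did not all follow these shares. All 6 Dlx promoters had H3K27Me3 alone in every diet, and 35 and 37 of 39 Hox promoters had it in HFD and HFD-O304, beside 32 in RD. Over all promoters the class with H3K27Me3 alone numbered 1070 in RD, against 1226 in HFD and 1416 with O304 added. The list of 89 developmental factors had 77 and 75 members with H3K27Me3 alone in the other diets. Cbx8 and Klf2 had both marks in all 3 diets. Six4, Nrarp, Smo and Rpl13 had H3K27Ac alone in HFD and HFD-O304, and Crh and Lgr5 had H3K27Me3 alone. Neurod1 and Myt1 were the 2 beta cell factors without a mark in RD. In HFD all 16 had H3K27Ac alone, and in HFD-O304 15 did and Nkx6-1 had both. Over all promoters with neither mark in RD, 10.6% had H3K27Ac alone in HFD and 10.4% in HFD-O304. As given above, in RD Neurod1 had an H3K27Ac peak outside the window and Myt1 had one at another start.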

How the data were processed

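The authors aligned paired reads to GRCm38 with bowtie2, merged the 2 replicates of each mark and called broad peaks with MACS 2.1.2 at a q cutoff of 0.01, per the file headers, with no input control and no local background. The deposited lists give, per peak, the mean pileup, which is a coverage signal in fragments per base, the −log10 p-value and q-value, and the fold enrichment, a ratio to a uniform background. The lists of RD islets rested on 83773042 kept fragments for H3K27Ac and 74870300 for H3K27Me3. All other values were computed here in python 3.11.15 with numpy 2.4.6, pandas 2.3.3, scipy 1.17.1 and matplotlib 3.10.9. Promoters were taken from GENCODE release 21 for mouse, and bases from the RefSeq copy of GRCm38. Where several peaks of a mark touched a promoter, the values are those of the peak that covered most of the window. The deposited p-values were not used. Chromosomes X and Y were left out. Some members of the lists are not reported here by name. Symbols that occurred more than once (27 genes) were counted once in lists. The assignment was tested on simulated data.

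Members and gene lists were chosen with earlier results of these data known. Named genes were the fixed lists and families, the 10 widest peaks and the 10 with the highest −log10 q in each single-mark class, the 10 promoters with both marks with the largest overlap and the 10 with the highest lower −log10 q, and the 10 name stems (at least 15 promoters) with the highest share. Genes named outside this rule were chosen after their values were seen, among them Btbd9, Dnah8, Glo1, Nrarp, Smo, Klf2, Epop and Crh. With merged replicates no test between groups was made, and shares carry 95% Wilson intervals. Alternatives varied the window, overlap, q and fold limits, list size, start sites, repeats and chromosomes.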

Additional observations from a re-analysis of the deposited data

How the results depend on the processing

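No paired analysis was possible because each list pools the pair of replicates of its mark. Leaving out a single replicate could not be done either. Of 169 values, 13 results under 13 alternatives, 135 stayed within the limits set and 34 moved. Promoters with H3K27Ac alone and with neither mark stayed within 1.5 times under every alternative run, from 6225 to 9685 and from 8847 to 14256. At a −log10 q of at least 5 in both lists, H3K27Me3 alone fell to 157 promoters and both marks to 75, and the share of H3K27Me3 promoters with H3K27Ac was 32.3%. Median widths were then 1044 bp (H3K27Ac at H3K27Ac only), 3229 bp (H3K27Ac at both), 1233 bp (H3K27Me3 at H3K27Me3 only) and 2985 bp (H3K27Me3 at both), with 41.3, 45.0, 31.2 and 39.8 fragments per base. Of the alternatives, 3 were chosen after seeing the data. Requiring that q limit for presence but absence from the whole list gave 124, 75 and 37.7%, widths of 1044, 3229, 1227.5 and 2985 bp, and 41.3, 45.0, 31.2 and 39.8 fragments per base. The share was 23.3% without Gm and Rik genes and 24.0% with promoters that share a peak counted once. It was 29.1% with 2500 bp either side and also with any start of a coding transcript, where H3K27Ac-only peaks had 38.1 fragments per base. A common fold cutoff of 2.53 gave a share of 17.6%, H3K27Ac widths of 980 and 1036.5 bp and 39.3 and 37.4 fragments per base at H3K27Ac-only and both-mark promoters, and an H3K27Me3 width of 632 bp at both. Without overlapping windows the H3K27Ac-only width was 902.5 bp. The cause of these shifts was not tested. A −log10 q of 5 or more was met by H3K27Me3 at 11.4% of H3K27Me3-only promoters.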

Other observations

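Counts for further families stand beside 44.3% of all promoters with H3K27Ac alone, 5.14% with H3K27Me3 alone, 1.83% with both and 48.7% with neither. Of 41 forkhead (Fox) promoters 13 had H3K27Ac alone, 14 H3K27Me3 alone, 1 both and 13 neither. Of 91 potassium channel (Kcn) promoters 23 had H3K27Ac alone, 16 H3K27Me3 alone, 4 both and 48 neither. Of 65 Rab promoters, which encode GTPases of vesicle traffic, 48 had H3K27Ac alone and 2 H3K27Me3 alone. Collagen and other genes with the stem Col had H3K27Me3 alone at 10 of 43 promoters and H3K27Ac alone at 1. Of 385 zinc finger genes with the stem Zfp 221 had H3K27Ac alone and 8 H3K27Me3 alone. Of 23 subunits of the vacuolar proton pump 14 had H3K27Ac alone and 9 neither. These are counts from 1 merged list per mark, and no difference between families was tested.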
